A study of Mus musculus with 6 samples.

Results

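Complement and coagulation genes were described in inguinal white adipose tissue, the fat pad under the skin of the groin, of old mice with and without S-nitrosoglutathione reductase (GSNOR). The set comprised 46 gene names chosen by function: complement components, their receptors and regulators, clotting factors, anticoagulants and genes of fibrinolysis. The names were chosen with earlier results of these data known. Of these, 42 were found by name among the 22695 rows of the deposited count table, and 34 were abundant enough to be among the 13694 genes tested. The names C1s, C2, Cfb and F8 matched no row and were not analysed here by name (C1s is an older name of C1s1, which was found). The remaining 8 rows, Masp2, C6, Cfi, F12, Proc, Serpind1, Serpinf2 and A2m, were left out of the test for low counts and held at most 15 counts in any library.

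Poly(A)-selected RNA was sequenced from 3 GSNOR KO and 3 WT samples, all from mice aged 20 months on the C57BL/6J background. The comparison addressed which transcripts differed in the fat of aged animals lacking the enzyme, whose substrate S-nitrosoglutathione carries a nitric oxide group on glutathione. The labels give the genotype only as GSNOR KO, without the allele or the tissues in which the gene was removed. Sex and any treatment are not stated in the labels. Samples carry the numbers 1 to 3 within a genotype with no word on whether each is a separate animal, and the p-values therefore measure only a spread between samples that may be technical.

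Complement is a cascade of proteases that tags cells and debris for removal. The classical pathway starts when C1q binds its target and activates the proteases C1r and C1s, which cleave C4 and C2. The lectin pathway does the same through the MASP proteases, and the alternative pathway amplifies C3 cleavage with factor B, factor D (adipsin) and properdin. Most circulating clotting and complement proteins come from the liver, but macrophages make C1q, stromal cells make C1r, C1s and C4, endothelium makes anticoagulants such as thrombomodulin, and adipocytes are the main source of adipsin.

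Levels are in CPM, counts scaled to TMM-corrected library sizes, and fold changes are log2 of GSNOR KO over WT from edgeR's quasi-likelihood test, with the standard error (SE) and a Benjamini-Hochberg adjusted p over all 13694 genes. A gene is called, and said to have risen or fallen, at an adjusted p under 0.05. Libraries held 20277594 to 23961574 counts, and a count of 3, the limit that 0 counts allows, corresponded to 0.131 to 0.138 CPM. Such limits cover counting error only. Adh5, which encodes GSNOR, was at 3.81 to 5.08 CPM in GSNOR KO and 58.8 to 76.9 CPM in WT libraries (log2 fold change -3.97, SE 0.171, edgeR adjusted p = 0.000135), and Adh5 matched the genotype label in every library. Summed adipocyte markers lay at 12036 to 14019 CPM in GSNOR KO and 11106 to 13190 CPM in WT, and 0 of the 10 were called. WT replicate 1 stood apart: its skeletal muscle markers summed to 33061 CPM, against 13682 and 14339 CPM in the other WT libraries and 5441 to 8705 CPM in GSNOR KO (6 of the 11 fell), its macrophage markers summed to 710.2 CPM, against 274 and 254 CPM in WT and 112 to 162 CPM in GSNOR KO, and its endothelial markers to 1976 CPM, against 3376 and 3755 CPM in WT and 3660 to 4318 CPM in GSNOR KO.

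Among the 34 tested members, 8 fell in GSNOR KO fat and 0 rose. Across all 13694 tested genes 3.14% fell and 3.9% rose, that is 430 and 534 genes, and scaling by library totals alone gave 406 lower and 314 higher. Because the members were chosen with earlier results known, the contrast with all genes describes them and is no test. The genes that fell were the C1q subunits C1qa, C1qb and C1qc, the classical pathway genes C1ra and C4b, the regulators Serping1 and Cd55, and Plau, the urokinase plasminogen activator. With all 6 libraries and no block edgeR called no clotting factor, anticoagulant, complement receptor or protease receptor among the members. DESeq2 called F7, C3ar1 and Itgb2 lower, and edgeR with the replicate number as a block called C5ar1 and Itgb2 lower. The median log2 fold change of the 34 members was -0.67, against -0.04 over all tested genes, and 27 members had a negative and 7 a positive value. At an unadjusted p under 0.05 edgeR gave 17 members lower and 1 higher, against 15.7% lower and 12.9% higher of all tested genes. DESeq2 called 14 members lower and 1 higher, against 7.91% and 7.51% of the 14922 genes to which it gave an adjusted p. With limma voom 7 members were called lower and 0 higher (1 higher at an unadjusted p under 0.05), against 1.94% and 3.42% of genes. With edgeR 8 members were called lower under RLE size factors (2.91% of genes), without a filter (1.91%), with a stricter filter (3.54%), without robust dispersion (3.21%) and with the replicate number as a block (3.71%), and 6 under library totals (2.96%). Every GSNOR KO library lay below every WT library in 17 members and above in 2, against 19.5% and 17.3% of all tested genes.

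**Figure D1:**
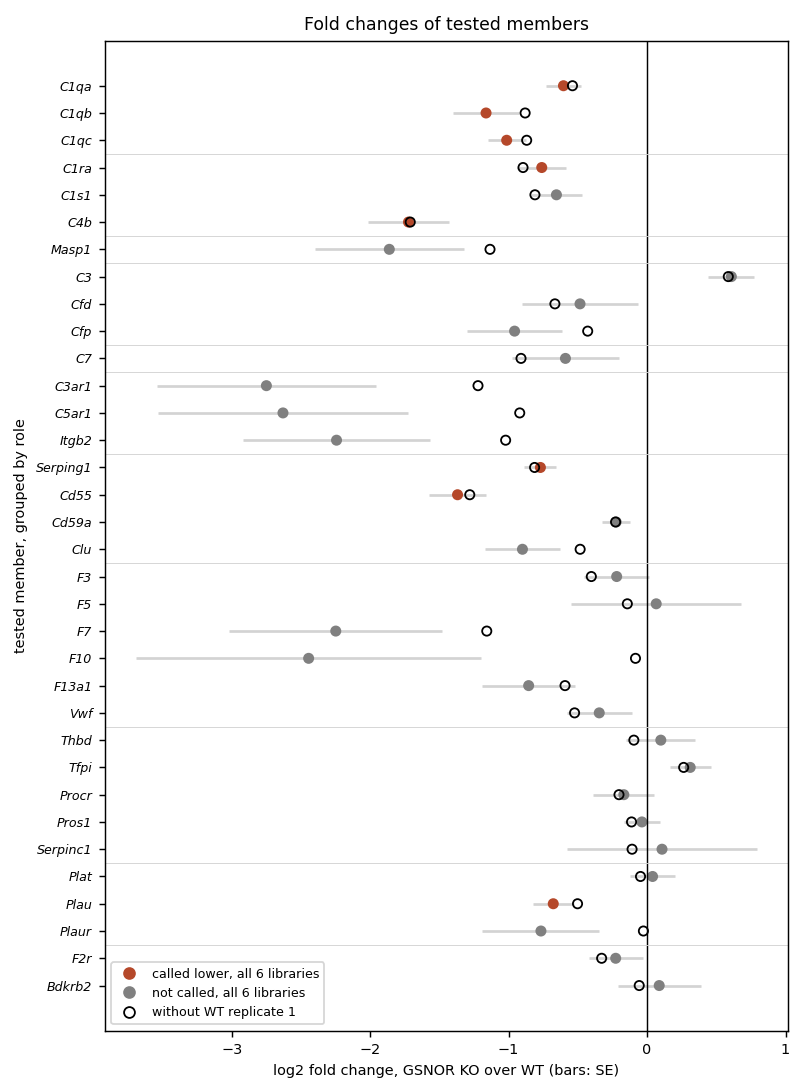
Log2 fold change of GSNOR KO over WT for the 34 tested members, grouped by role from the C1q subunits at the top to the thrombin and bradykinin receptors at the bottom. Filled points with bars are the fold changes and SE from all 6 libraries, red where called lower, and open points are the fold changes without WT replicate 1, which lie far from the filled points for C3ar1, C5ar1, Itgb2, F10 and Plaur and close to them for C4b, Serping1 and Cd55.

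These calls depended on which libraries were included. Leaving out WT replicate 1 gave 12 members lower and 1 higher (8.77% lower and 11.8% higher of all tested genes). Of the 12 lower, 7 were among the 8 that fell with all libraries. Without WT replicate 3 the numbers were 7 lower and 1 higher (3.37% and 3.22%), and 5 of the 7 were among those 8. Without GSNOR KO replicate 1 C4b alone was called. Without GSNOR KO replicate 2, GSNOR KO replicate 3 or WT replicate 2 edgeR called 0 members. In these fits 13, 15 and 17 members were lower at an unadjusted p under 0.05. The share of all tested genes at that threshold was not computed for these fits, so the counts cannot be set against it. All 8 genes that fell kept a negative log2 fold change in every leave-out, and each kept its call in 1 or 2 of the 6. In those 4 leave-outs few genes of any kind were called lower: 0.0286% with GSNOR KO replicate 1 left out, 0.0144% with replicate 2 or replicate 3 of that group left out, and 0.0359% with WT replicate 2 left out.

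C1q is assembled from the products of C1qa, C1qb and C1qc, which are neighbours on the minus strand of chromosome 4 (GRCm38, 136880129 to 136898803). All 3 subunit genes fell. C1qa was at 30.1, 23.6 and 28.2 CPM in GSNOR KO replicates 1 to 3, against 43.4, 37.6 and 43.3 CPM in WT replicates 1 to 3 (log2 fold change -0.60, SE 0.129, edgeR adjusted p = 0.0401). C1qb was at 22.5, 14.9 and 19.3 CPM in GSNOR KO, against 56.0, 31.8 and 39.4 CPM in WT (log2 fold change -1.16, SE 0.238, edgeR adjusted p = 0.0367). C1qc was at 15.2, 14.9 and 15.96 CPM in GSNOR KO, against 35.7, 26.3 and 30.9 CPM in WT (log2 fold change -1.01, SE 0.136, edgeR adjusted p = 0.0181). The groups did not overlap for any subunit, and WT replicate 1 was the highest library for each. Summed over the 3 genes the level was 67.8, 53.4 and 63.5 CPM in GSNOR KO, against 135.2, 95.8 and 113.6 CPM in WT, a ratio of means of 0.536, and of 0.588 without WT replicate 1. The ratios between subunits were lower in every GSNOR KO library. The ratio of C1qb to C1qa was 0.749, 0.634 and 0.686 in GSNOR KO, against 1.29, 0.846 and 0.909 in WT, and that of C1qc to C1qa was 0.505, 0.630 and 0.566 in GSNOR KO, against 0.822, 0.700 and 0.714 in WT. Neither ratio overlapped between the groups, and neither was tested.

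The RefSeq promoter table (GRCm38.p6) held 4 of the 8 genes that fell: C1qb, C1qc, C1ra and Cd55. The bases just before the start of the neighbouring genes C1qb and C1qc, and of Cd55, the regulator with the largest drop, are given 5′ to 3′ on the strand of the gene, which is the minus strand for all 3. They end before every annotated transcript start and so differ in length. Capitals mark matches on either strand to GAGGAA, the core letters bound by the myeloid factor PU.1, or to TGCTGA, a Maf half-site. A match on the opposite strand reads TTCCTC for PU.1 and TCAGCA for the Maf half-site, and no matches overlapped.
C1qb, chr4:136886201-136886450: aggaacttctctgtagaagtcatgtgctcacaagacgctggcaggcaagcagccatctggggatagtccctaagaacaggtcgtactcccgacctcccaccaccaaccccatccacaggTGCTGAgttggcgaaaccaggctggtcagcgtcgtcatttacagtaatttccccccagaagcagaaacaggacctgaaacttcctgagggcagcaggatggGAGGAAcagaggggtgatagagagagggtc
C1qc, chr4:136893066-136893164: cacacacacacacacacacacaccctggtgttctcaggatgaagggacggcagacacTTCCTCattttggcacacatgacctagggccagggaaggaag
Cd55, chr1:130462745-130462994: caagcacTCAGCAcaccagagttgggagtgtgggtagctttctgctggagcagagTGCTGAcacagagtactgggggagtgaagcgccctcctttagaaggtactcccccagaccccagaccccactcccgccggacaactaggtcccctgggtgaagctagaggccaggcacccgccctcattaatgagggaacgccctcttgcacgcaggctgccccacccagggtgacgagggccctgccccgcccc
The C1qb stretch held 1 match to each motif, the C1qc stretch 1 match to GAGGAA and the Cd55 stretch 2 matches to TGCTGA. The C1ra stretch, not shown, has 34 bases and held 0 matches to either motif, which 3.15% and 1.91% of promoters held in that length. These letters are common. Of 32851 promoters 23.3% held GAGGAA and 16.1% held TGCTGA in 250 bases, and 9.91% and 6.43% did so in 99 bases. None of the 3 stretches shown, nor that of C1ra, held TATAAA, the TATA box letters. Of promoters 12.4% held these letters in 250 bases, 5.2% in 99 bases and 1.72% in 34 bases. A match describes letters and not a bound site.

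The summed macrophage markers and the C1q sum were both lower in every GSNOR KO library than in any WT library. The 15 markers with a row summed to 162, 112 and 144 CPM in GSNOR KO, against 710.2, 274 and 254 CPM in WT. The ratio of means was 0.338 for the marker sum and 0.536 for the C1q sum. Without WT replicate 1 these ratios were 0.528 and 0.588. WT replicate 1 stood far above the other WT libraries in the marker sum, while its C1q sum was 135.2 CPM, against 95.8 and 113.6 CPM. Of the 15 markers 4 fell, namely Csf1r, Mrc1, Clec10a and Gpnmb. None of the 15 was at 0 in all libraries. Relative to Csf1r, the receptor that macrophages need to survive, the C1q sum was 5.09, 5.10 and 5.13 in GSNOR KO and 3.16, 4.15 and 5.22 in WT, so that the groups overlapped. Relative to Lyz2, the lysozyme of macrophages and neutrophils, it was 1.17, 1.30 and 1.25 in GSNOR KO and 0.457, 0.891 and 1.13 in WT, without overlap and higher in GSNOR KO. Relative to Cd68 and to Mrc1, further macrophage markers, the groups overlapped, with ratios of 7.01 to 9.91 in GSNOR KO and 2.17 to 11.7 in WT for Cd68, and of 6.30 to 9.44 in GSNOR KO and 5.42 to 7.14 in WT for Mrc1. The groups thus stood apart for 1 of these 4 markers. The part of macrophage content in the C1q result was not tested, and in bulk tissue fewer cells of a type and less RNA per cell cannot be told apart.

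**Figure D2:**
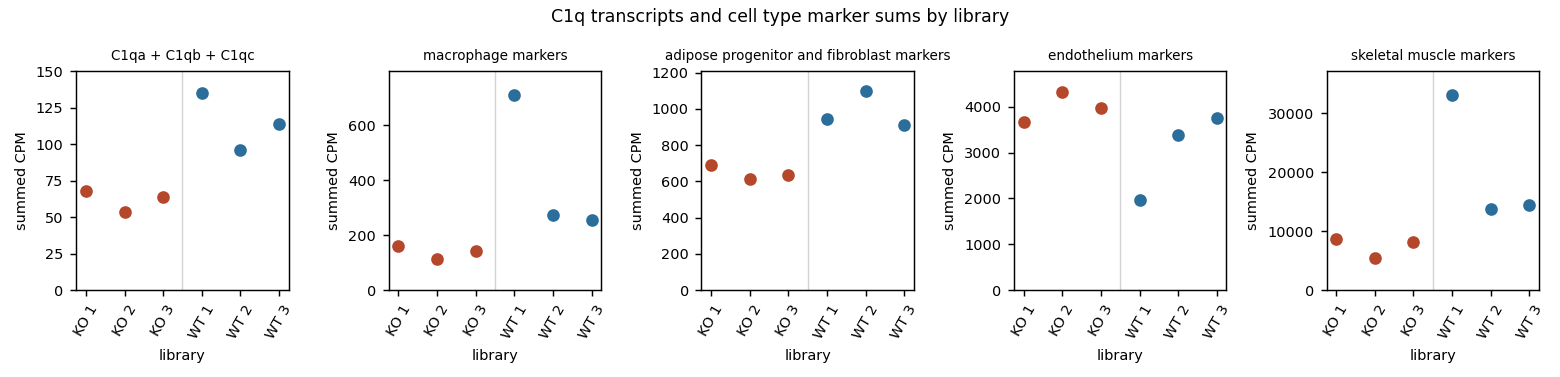
Summed CPM in each library for the C1q subunits and for the markers of macrophages, adipose progenitors and fibroblasts, endothelium and skeletal muscle, with GSNOR KO libraries (red) left and WT libraries (blue) right. The C1q sum spans 53.4 to 67.8 CPM in GSNOR KO and 95.8 to 135.2 CPM in WT, and WT replicate 1 is the highest library for macrophage and muscle markers and the lowest for endothelial markers.

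The classical pathway genes C4b and C1ra fell, and C1s1 did not pass the test. C4b (chromosome 17, 34728380 to 34743882, GRCm38) encodes complement C4, which C1s cleaves to start the convertase, and had the largest drop among the 8 members called. It was at 34.0, 14.4 and 18.8 CPM in GSNOR KO, against 72.2, 78.7 and 71.2 CPM in WT (log2 fold change -1.72, SE 0.295, edgeR adjusted p = 0.0269). GSNOR KO replicate 1, the highest of its group, still lay below the lowest WT library, and the log2 fold change was -1.71 without WT replicate 1 (adjusted p = 0.0588). C4a, a near-identical copy beside it, matched no row, so reads of both copies may be counted under C4b. C1ra (chromosome 6, 124512405 to 124523443) encodes the protease C1r and was at 12.4, 11.1 and 11.5 CPM in GSNOR KO, against 14.96, 23.5 and 20.9 CPM in WT (log2 fold change -0.76, SE 0.178, edgeR adjusted p = 0.0477). Here WT replicate 1 was the lowest WT library, and the log2 fold change without it was -0.90 (adjusted p = 0.00161). C1s1, the partner protease C1s, was at 42.0, 36.0 and 38.8 CPM in GSNOR KO, against 44.5, 71.9 and 67.6 CPM in WT (log2 fold change -0.66, SE 0.186, edgeR adjusted p = 0.072). Its groups did not overlap, but WT replicate 1 lay near the GSNOR KO libraries, and C1s1 was called only without that library (log2 fold change -0.81, adjusted p = 0.00101) and by DESeq2 (adjusted p = 0.0221). Their near copies C1rb and C1s2 held 0 counts and at most 4 counts in any library.

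The regulators Serping1 and Cd55 fell as well. Serping1 (chromosome 2, 84765387 to 84775444) encodes the C1 inhibitor, a serpin that blocks C1r, C1s, the MASP proteases and plasma kallikrein. It was at 43.1, 39.8 and 42.9 CPM in GSNOR KO, against 64.2, 79.8 and 70.8 CPM in WT (log2 fold change -0.77, SE 0.115, edgeR adjusted p = 0.0203), with a narrow spread in GSNOR KO and no overlap. Cd55 (chromosome 1, 130439027 to 130462744), decay-accelerating factor, takes apart the C3 convertases on cell surfaces. Its level was 3.46, 2.65 and 3.69 CPM in GSNOR KO, against 9.10, 8.91 and 7.32 CPM in WT (log2 fold change -1.37, SE 0.205, edgeR adjusted p = 0.0203). The groups lay far apart, and the log2 fold change stayed between -1.46 and -1.23 in the leave-outs. A transcript annotated on the other strand, Gm16083, overlaps Cd55, and whether counting used strand is not stated in the labels. Cd59a, which blocks the membrane attack complex, was the most abundant regulator and was not called, with 100.5, 104 and 100.2 CPM in GSNOR KO and 113, 126 and 116 CPM in WT (log2 fold change -0.22, edgeR adjusted p = 0.2). The groups were close but did not overlap. Clu, clusterin, which keeps the terminal complex off membranes, was at 22.5, 18.8 and 20.6 CPM in GSNOR KO and 56.7, 26.9 and 32.1 CPM in WT (log2 fold change -0.90, edgeR adjusted p = 0.0827). WT replicate 1 was its highest library, and without it the log2 fold change was -0.48 (adjusted p = 0.0203), while DESeq2 called Clu lower with all libraries (adjusted p = 0.0233).

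**Figure D3:**
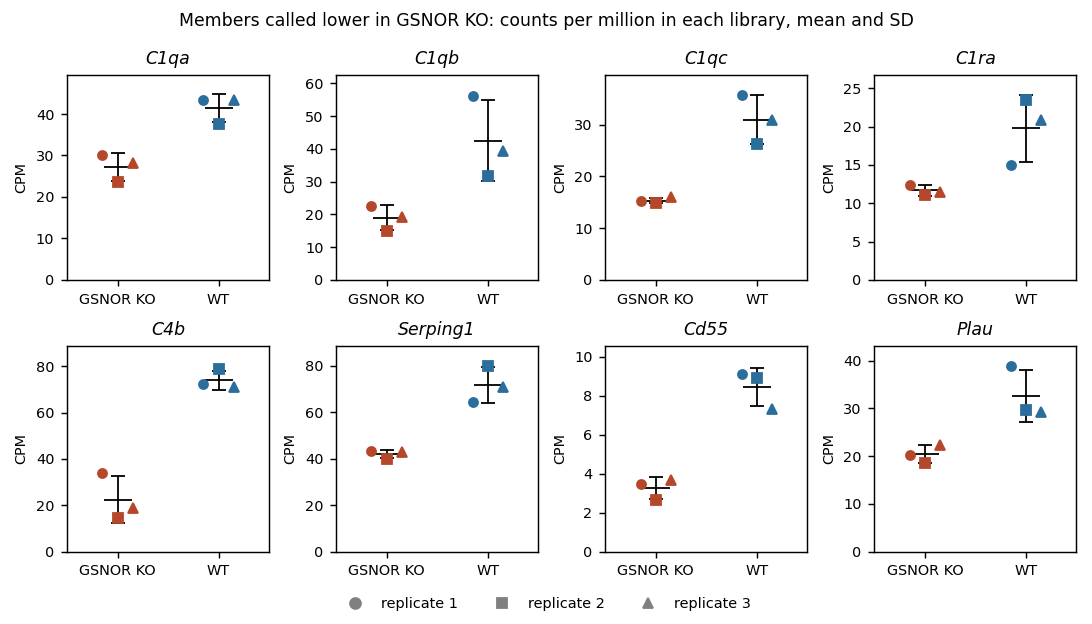
CPM in each library of the 8 members called lower, with GSNOR KO (red) left and WT (blue) right. Horizontal lines are means and bars are SD (n = 3 each), axes start at 0, and in all 8 panels the GSNOR KO points lie below the WT points.

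Summed markers of adipose progenitors and fibroblasts were lower in every GSNOR KO library than in any WT library, with a ratio of means of 0.657. They summed to 613 to 688 CPM in GSNOR KO and 910 to 1097 CPM in WT, and 6 of the 13 fell, namely Pdgfra, Dcn, Lum, Dpt, Thy1 and Col1a2. None of the 13 was at 0. Relative to C1s1, a member and not one of these markers, the C4b level was 0.810, 0.400 and 0.485 in GSNOR KO and 1.62, 1.10 and 1.05 in WT, without overlap. C1s1 itself was lower in WT replicate 1 than in the other WT libraries. C4b was not set against any of the 13 markers. The part of stromal content in the results for C1ra, C4b, Serping1 and Cd55 was not tested.

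C3 had the largest positive fold change among the members and did not pass the test. The protein is the point on which all complement pathways converge. C3 was at 393, 302 and 334 CPM in GSNOR KO, against 209, 196 and 270.4 CPM in WT (log2 fold change 0.61, SE 0.167, edgeR adjusted p = 0.0672). All GSNOR KO libraries lay above all WT libraries, but edgeR did not call the gene with 6 libraries. DESeq2 called it (log2 fold change 0.63, adjusted p = 0.00727), and so did edgeR without WT replicate 1 (adjusted p = 0.0421) or without WT replicate 3 (adjusted p = 0.0416). C3 was 1 of 2 members whose GSNOR KO libraries all lay above the WT libraries, the other being Tfpi. Cfd, which encodes adipsin, the protease that cleaves factor B, scattered widely within both groups. It was at 331, 143 and 475 CPM in GSNOR KO and 302, 548 and 478 CPM in WT (log2 fold change -0.48, SE 0.418, edgeR adjusted p = 0.487). The groups overlapped, and the lowest and highest libraries were GSNOR KO replicate 2 and WT replicate 2. Cfp, properdin, which stabilises the alternative convertase and is made by myeloid cells, was at 9.98, 7.90 and 11.4 CPM in GSNOR KO and 30.0, 12.3 and 14.5 CPM in WT (log2 fold change -0.96, edgeR adjusted p = 0.121). Its groups did not overlap, and without WT replicate 1, its highest library, the log2 fold change was -0.43.

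Per transcript length, in the length-scaled values (FPKM) that the authors deposited, Cfd and C3 had the highest mean levels of all members in both groups. The mean level of Cfd was 440.2 ± 209 FPKM in GSNOR KO and 637 ± 124 FPKM in WT (SD, n = 3 each), and that of C3 was 203 ± 36.3 FPKM in GSNOR KO and 121 ± 27.5 FPKM in WT. Cd59a stood at 57.1 ± 0.871 FPKM in GSNOR KO and 64.2 ± 1.39 FPKM in WT, C4b at 22.4 ± 16.9 FPKM in GSNOR KO and 84.9 ± 11.6 FPKM in WT, and Serping1 at 29.8 ± 2.21 FPKM in GSNOR KO and 50.9 ± 1.23 FPKM in WT. After Cfd and C3 the order of the means was Cd59a, Serping1 and C4b in GSNOR KO and C4b, Cd59a and Serping1 in WT. These levels were not tested. For C4b 1 CPM corresponded to 0.548 to 1.22 FPKM in GSNOR KO and 1.03 to 1.33 FPKM in WT, so the FPKM of this gene did not scale with its counts alone. At the other end Masp2, C6, F12, Proc, Serpind1, Serpinc1, F5, Serpinf2 and A2m had means of at most 0.206 FPKM in both groups, and Cfi had 0 counts in all 6 libraries. The 10 liver markers summed to 1062 to 1733 CPM in GSNOR KO and 1143 to 1784 CPM in WT, with overlap, nearly all of it from Hp, haptoglobin, which fat also expresses. Of the liver markers 1 fell, Alb, at 0 to 0.315 CPM in GSNOR KO and 1.29 to 2.71 CPM in WT, and 1 rose, Apoc3.

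Masp1 and C7 were the tested members of the lectin and terminal pathways, and edgeR called neither with all 6 libraries. Masp1, a lectin pathway protease, was at 0.585, 0.404 and 0.719 CPM in GSNOR KO and 3.68, 1.33 and 1.24 CPM in WT (log2 fold change -1.86, SE 0.538, edgeR adjusted p = 0.0751). The groups did not overlap, and WT replicate 1 was over 2 times as high as any other library. Without that library its log2 fold change was -1.13 (edgeR adjusted p = 0.111), and DESeq2 called Masp1 lower with all libraries (adjusted p = 0.0217). C7, a component of the membrane attack complex, was at 6.21, 6.42 and 5.35 CPM in GSNOR KO and 4.07, 9.83 and 13.2 CPM in WT (log2 fold change -0.59, edgeR adjusted p = 0.358). WT replicate 1 was its lowest library, and without it C7 was called (log2 fold change -0.91, adjusted p = 0.00873).

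The complement receptors did not pass edgeR's test with all 6 libraries and no block, and were highest in WT replicate 1. C3ar1, the receptor for the C3a fragment, was at 2.74, 1.66 and 2.43 CPM in GSNOR KO and 35.1, 6.25 and 4.62 CPM in WT (log2 fold change -2.75, SE 0.791, edgeR adjusted p = 0.0757). C5ar1, the receptor for C5a, was at 3.42, 0.942 and 2.25 CPM in GSNOR KO and 32.4, 4.59 and 3.93 CPM in WT (log2 fold change -2.63, SE 0.905, edgeR adjusted p = 0.11). Itgb2, the beta chain of complement receptors CR3 and CR4 and of other leukocyte integrins, was at 6.97, 3.28 and 4.77 CPM in GSNOR KO and 50.3, 9.19 and 11.6 CPM in WT (log2 fold change -2.24, SE 0.678, edgeR adjusted p = 0.0842). In all 3 genes the groups did not overlap, and WT replicate 1 was several times higher than the other WT libraries. Without that library the log2 fold changes were -1.22 for C3ar1, -0.92 for C5ar1 and -1.02 for Itgb2. The adjusted p-values were then 0.0162, 0.175 and 0.0412, so that C3ar1 and Itgb2 passed although their fold changes were smaller. DESeq2 called C3ar1 and Itgb2 lower with all libraries (adjusted p = 0.0238 and 0.0443), and edgeR called C3ar1 without WT replicate 3 (adjusted p = 0.0472). With the replicate number as a block, edgeR called C5ar1 and Itgb2 lower (edgeR adjusted p = 0.047 and 0.0299).

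A level in WT replicate 1 at least 2 times that of both other WT libraries was found in 8 members, namely these 3 receptors, Cfp, Masp1, F7, F10 and Plaur, against 4.96% of all tested genes. This count was chosen after the values were seen. WT replicate 1 was the highest of the 6 libraries in 15 members and the lowest in 8, against 29.8% and 29% of all tested genes. The 8 at their lowest there were Vwf, Thbd, Tfpi and Pros1, which endothelium expresses, as well as F3, C7, Plat and Bdkrb2. The neutrophil markers summed to 20.3 CPM in WT replicate 1, 6.06 and 7.91 CPM in the other WT libraries and 4.40 to 5.35 CPM in GSNOR KO, with the defining marker Ly6g at 0 in every library. The part of leukocyte content in the receptor values was not tested.

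**Figure D4:**
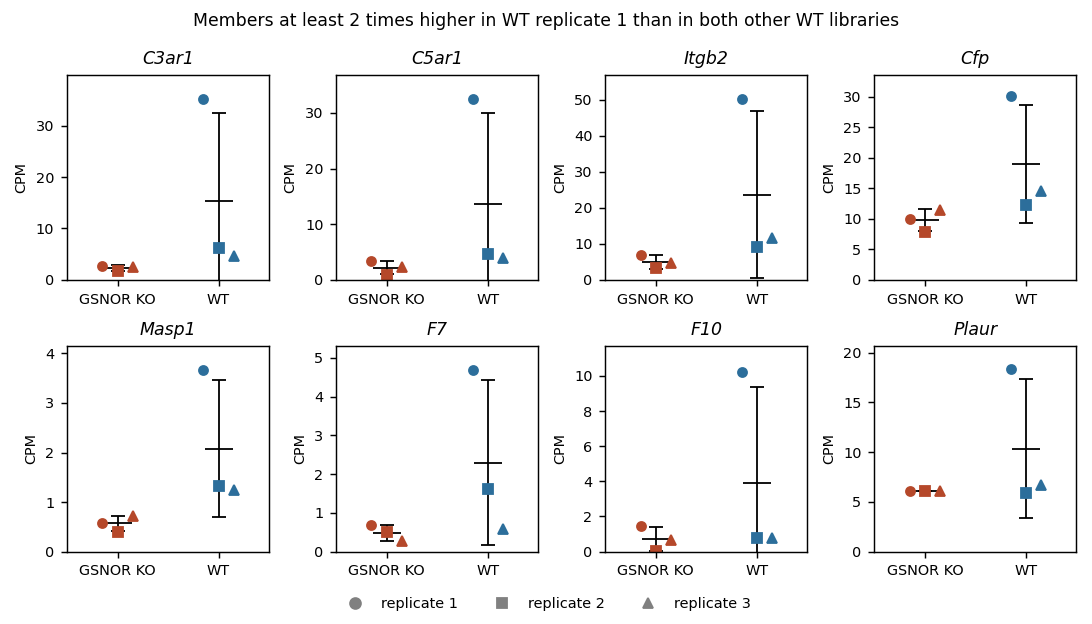
CPM in each library of the 8 members that were at least 2 times higher in WT replicate 1 than in both other WT libraries, with GSNOR KO (red) left and WT (blue) right. Lines are means and bars are SD (n = 3 each, drawn down to 0 at most), and the single high WT point in each panel is replicate 1.

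Among 6 tested clotting factors edgeR called none with all 6 libraries. F7, factor VII, the partner of tissue factor, was at 0.675, 0.494 and 0.270 CPM in GSNOR KO and 4.68, 1.61 and 0.595 CPM in WT (log2 fold change -2.25, SE 0.77, edgeR adjusted p = 0.109). F10, factor X, which lies next to F7 on chromosome 8, was at 1.44, 0.0449 and 0.674 CPM in GSNOR KO and 10.2, 0.781 and 0.778 CPM in WT (log2 fold change -2.44, SE 1.25, edgeR adjusted p = 0.244). The groups overlapped for both genes, and without WT replicate 1 the log2 fold change was -1.16 for F7 (adjusted p = 0.195) and -0.08 for F10 (adjusted p = 0.959). F7 was called lower by DESeq2 (adjusted p = 0.0308) and by edgeR without WT replicate 3 (adjusted p = 0.0492). F13a1, the A subunit of factor XIII, which crosslinks fibrin and is expressed by tissue macrophages, was at 12.9, 5.52 and 11.7 CPM in GSNOR KO and 23.5, 17.2 and 13.7 CPM in WT (log2 fold change -0.86, SE 0.334, edgeR adjusted p = 0.145). Its groups did not overlap. F3, tissue factor, the trigger of clotting, was at 20.7, 27.5 and 22.4 CPM in GSNOR KO and 18.7, 35.1 and 28.5 CPM in WT (log2 fold change -0.22, edgeR adjusted p = 0.576), with overlap. F5, factor V, lay at 0.315 to 1.03 CPM in GSNOR KO and 0.350 to 0.823 CPM in WT.

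Vwf, von Willebrand factor, which endothelium stores and releases to bind platelets, was at 41.6, 38.3 and 41.8 CPM in GSNOR KO and 35.6, 47.8 and 71.3 CPM in WT (log2 fold change -0.35, SE 0.234, edgeR adjusted p = 0.373). The GSNOR KO libraries lay close together and within the range of the WT libraries. Relative to Pecam1, a marker of endothelium, the Vwf level was 0.0955, 0.0815 and 0.0946 in GSNOR KO and 0.117, 0.117 and 0.165 in WT, without overlap. The ratio of Thbd, thrombomodulin, to Pecam1 was 0.158 to 0.171 in GSNOR KO and 0.150 to 0.224 in WT, with overlap. Neither ratio was tested.

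The anticoagulants of the vessel wall were not called. Thbd, thrombomodulin, which turns thrombin into an activator of protein C, was at 68.8, 77.9 and 75.5 CPM in GSNOR KO and 45.9, 64.9 and 96.7 CPM in WT (log2 fold change 0.10, SE 0.249, edgeR adjusted p = 0.825). Tfpi, the inhibitor of the tissue factor complex, was at 11.9, 11.6 and 14.1 CPM in GSNOR KO and 8.97, 10.1 and 11.2 CPM in WT (log2 fold change 0.31, SE 0.148, edgeR adjusted p = 0.214). Thbd overlapped between the groups and Tfpi did not, by a small margin. Procr, the endothelial protein C receptor, lay at 5.47 to 9.53 CPM in GSNOR KO and 7.79 to 9.23 CPM in WT, and Pros1, protein S, at 36.2 to 40.4 CPM in GSNOR KO and 33.5 to 44.8 CPM in WT. Serpinc1, antithrombin, stayed at or under 0.539 CPM in all libraries. Proc, protein C, was not tested.

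In fibrinolysis Plau fell. Plau (chromosome 14, 20836660 to 20843385) encodes urokinase, which converts plasminogen to plasmin, and was at 20.1, 18.6 and 22.3 CPM in GSNOR KO, against 38.8, 29.7 and 29.2 CPM in WT (log2 fold change -0.68, SE 0.147, edgeR adjusted p = 0.0418). The groups did not overlap, and without WT replicate 1 the log2 fold change was -0.50 (adjusted p = 0.0112). Its receptor gene Plaur was at 6.07, 6.10 and 6.07 CPM in GSNOR KO and 18.4, 5.93 and 6.72 CPM in WT (log2 fold change -0.77, SE 0.422, edgeR adjusted p = 0.275). The GSNOR KO values and the other WT values were nearly alike, and without WT replicate 1 the log2 fold change was -0.03. Plat, the tissue plasminogen activator, lay at 11.3 to 13.2 CPM in GSNOR KO and 9.71 to 13.8 CPM in WT (log2 fold change 0.04, edgeR adjusted p = 0.898). The receptors F2r, for thrombin, and Bdkrb2, for bradykinin, averaged 16.4 ± 2.97 and 1.81 ± 0.128 CPM in GSNOR KO, against 19.2 ± 3.95 and 1.71 ± 0.402 CPM in WT (SD, n = 3 each), and neither was called.

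**Figure D5:**
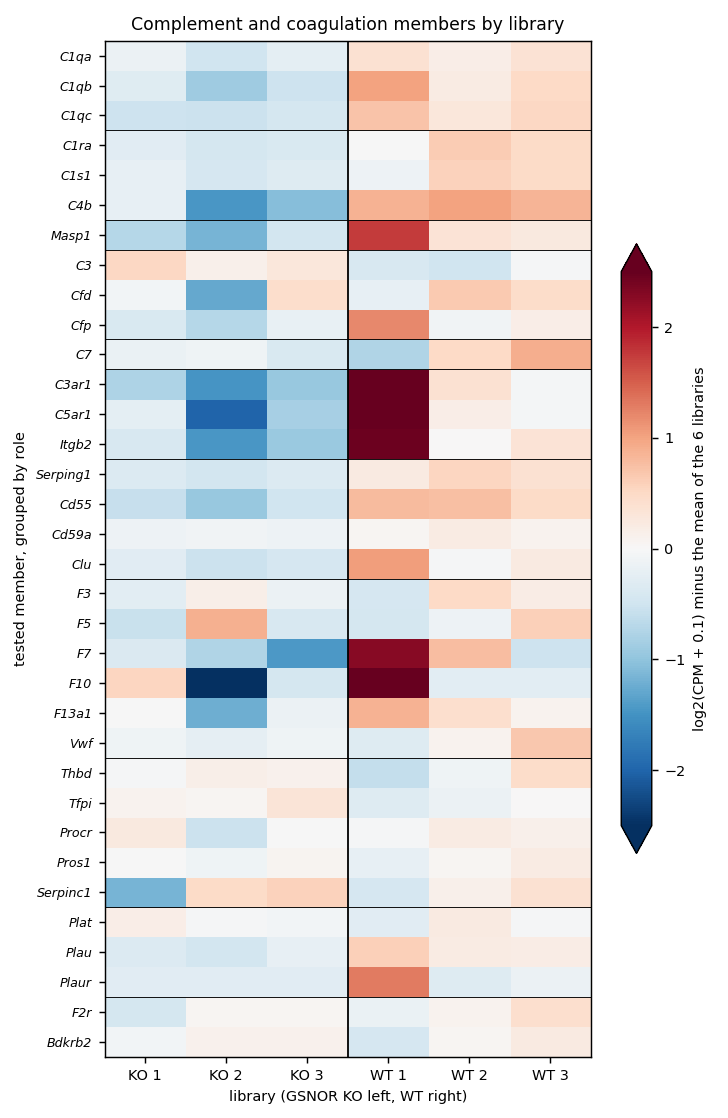
Level of each of the 34 tested members in each library, as log2(CPM + 0.1) minus the mean of the 6 libraries, with GSNOR KO left and WT right and roles separated by lines. Colours stop at the ends of the scale, and the C1q, C1ra, C1s1 and C4b rows are lower in GSNOR KO throughout. The rows of C3ar1, C5ar1 and Itgb2 are darkest in WT replicate 1. The F10 row is highest in WT replicate 1 and lowest in GSNOR KO replicate 2.

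A wider list of 76 further complement and clotting genes gave 74 rows and 33 tested genes, of which 2 fell and 2 rose, against 3.14% and 3.9% of all tested genes. Their median log2 fold change was -0.25, against -0.67 for the members and -0.04 for all genes. Of 17 tested complement genes 1 fell, Itgax, the alpha chain of complement receptor CR4, with 1.71, 0.942 and 1.57 CPM in GSNOR KO, against 4.59, 4.27 and 2.79 CPM in WT (log2 fold change -1.46, edgeR adjusted p = 0.0453). The 2 that rose were C1rl and C8g. C1rl, which encodes a protease similar to C1r and lies next to C1ra on chromosome 6, was at 14.0, 17.7 and 15.5 CPM in GSNOR KO, against 7.66, 10.2 and 9.33 CPM in WT (log2 fold change 0.80, SE 0.159, edgeR adjusted p = 0.0348). The neighbours C1rl and C1ra thus went in opposite directions, both without overlap, and a transcript on the other strand, Gm44096, overlaps C1rl. C8g, the gamma chain of C8, was at 11.1, 16.4 and 13.4 CPM in GSNOR KO, against 4.99, 5.97 and 5.76 CPM in WT (log2 fold change 1.29, SE 0.185, edgeR adjusted p = 0.0189). It overlaps Fbxw5 on the other strand, so the source of its reads is uncertain, and C8a and C8b were not tested for low counts.

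Of 16 tested clotting and fibrinolysis genes on that list 1 fell and 0 rose in edgeR. Another 7 had an unadjusted p under 0.05. The fold changes of 5 of them, Serpine2, F2rl1, Anxa2, Anxa5 and Thbs1, were negative, and Kng2 and Plgrkt had positive values of 0.55 and 0.52 on the log2 scale (edgeR adjusted p = 0.108 and 0.0825). DESeq2 called Plgrkt and Adamts13 higher and, among these 5, Serpine2 and Thbs1 lower. Serpine2, protease nexin-1, a serpin against thrombin and urokinase, had a log2 fold change of -0.96 (edgeR adjusted p = 0.0568). Itgam, the alpha chain of CR3 and partner of Itgb2, lay at 1.80, 2.69 and 2.52 CPM in GSNOR KO and 32.5, 3.68 and 4.39 CPM in WT, with WT replicate 1 far above the rest (edgeR adjusted p = 0.106). Among the complement genes not called, C5ar2, a further C5a receptor, had a log2 fold change of -2.49 (edgeR adjusted p = 0.0785) and was called lower by DESeq2 (adjusted p = 0.0214).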

How the data were processed

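Per the labels' protocols, poly-T beads enriched messenger RNA from snap-frozen fat, and Illumina libraries were primed at random. The authors deposited 1 table with whole-number read counts per gene, not normalized, and FPKM, which the authors scaled to transcript length and to library size, per the file headers. The build was GRCm38 (mm10), per the submitters' processing notes; the aligner, the counter and use of strand: not given in the sources used here. Overlapping genes and near copies may share counts.

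Counts were tested with edgeR 4.0.16 in R 4.3.3 (filterByExpr, TMM, quasi-likelihood F test with robust dispersion, no covariate) over all 6 libraries, with Benjamini-Hochberg adjustment. SE is the log2 fold change over the square root of F. The tests were tried on simulated data first. FPKM served for levels between genes and for 1 alternative. With 3 against 3 samples an exact permutation test cannot go below p = 0.1, so none was used. Coordinates are from GENCODE M21.

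The members and all lists were chosen with earlier results of these data known. Values are given for members called or at an unadjusted p under 0.05, for the most abundant of each role, and otherwise as ranges; of the wider lists the called genes and those of smallest p are named, and the result of 1 gene is not reported here. Alternatives were RLE factors, library totals, no filter, a filter of 1 CPM or more in 3 libraries or more, limma voom (limma 3.58.1), DESeq2 1.42.0, no robust dispersion, a replicate block and leaving out each library.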

Additional observations from a re-analysis of the deposited data

How the results depend on the processing

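With RLE size factors, no filter, the stricter filter or no robust dispersion 8 members were called lower, and with library totals 6, without C1qa and C1ra. DESeq2 called 14 members lower and 1 higher, and over all genes 1180 lower and 1120 higher; limma voom called 266 genes lower, and library totals only left 314 higher. Over the leave-outs the members called ranged from 0 to 12 lower and 0 to 1 higher, the other pathway genes from 0 to 4 lower and 0 to 3 higher, and all genes from 2 to 1214 lower and 1 to 1630 higher. The other pathway genes called lower numbered 1 without a filter, 5 in DESeq2, 0 in limma voom (7 at an unadjusted p under 0.05) and 1 with the replicate block, and DESeq2 called 4 of them higher. The causes were not tested. The ratio of the C1q sums lay between 0.489 and 0.588 in all alternatives. Of the 18 members at an unadjusted p under 0.05 none changed sign in any alternative run, and the call of 2 was lost with library totals and of 1 with limma voom, while DESeq2 added 7. After the group mean of each gene was subtracted, same-numbered libraries correlated at 0.159, 0.137 and -0.0589, and other pairs across the groups at -0.221 to 0.191. With 3 libraries per group these values cannot settle whether the numbers pair the samples. A replicate block gave 8 members lower, 6 of them shared, with C5ar1 and Itgb2 in place of C1ra and Plau. Over all genes it gave 508 lower and 376 higher. Depth limits the members under 1 CPM most.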

Other observations

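The names C2 and Cfb, neighbouring complement genes on chromosome 17, matched no row, but the row Gm20547 (GRCm38, 34856412 to 34882042, minus strand) covers 6107 bases of Cfb and 19439 bases of C2 on the same strand. It was named after its values were seen. It stood at 12.1, 8.88 and 12.9 CPM in GSNOR KO, against 39.4, 48.6 and 31.1 CPM in WT (log2 fold change -1.81, SE 0.21, edgeR adjusted p = 0.018), without overlap, and at -1.78 without WT replicate 1 (adjusted p = 0.0057). Which of the overlapping genes its reads came from was not tested, and it also overlaps Zbtb12 on the other strand.

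The other marker lists gave these sums. B and plasma cell markers lay at 9.17 to 16.8 CPM in GSNOR KO and at 31.0, 20.5 and 141.6 CPM in WT replicates 1 to 3. T and NK cell markers lay at 3.05 to 4.59 CPM in GSNOR KO and at 14.0, 6.25 and 18.7 CPM in WT replicates 1 to 3. In both sums every WT library lay above every GSNOR KO library, with WT replicate 3 the highest, and 0 genes of either list were called. Platelet markers lay at 17.3 to 23.2 CPM in GSNOR KO and 18.0 to 32.6 CPM in WT, and Itga2b rose. Mesothelial markers, of which Lrrn4 rose, lay at 1.98 to 3.69 CPM in GSNOR KO and 1.19 to 1.65 CPM in WT, and epithelial markers, with Wfdc2 at 0, at 0.449 to 3.82 CPM in GSNOR KO and 0.735 to 0.823 CPM in WT.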
